A study of Mus musculus with 10 samples.

Results

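The CXC chemokines described here are 9 genes, Cxcl1, Cxcl2, Cxcl3, Cxcl9, Cxcl10, Cxcl11, Cxcl12, Cxcl13 and Cxcl16, chosen by name from the 22180 mouse genes that the arrays measured with a probe set of 1 gene symbol. Each of the 9 was measured by 1 such probe set. All 9 were among the 13371 genes that passed a filter on low values, which asked for a level above the median of all probe sets of the array on at least 2 of the 10 arrays.

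RNA from splenic CD11c+ dendritic cells (DCs) was measured on Affymetrix arrays of the Mouse Gene 2.0 ST design, 1 array per sample. The donors were wild-type mice (WT) and C3ar1-/-C5ar1-/- mice, called DKO here. The DKO mice lack C3ar1, a receptor for the complement fragment C3a, and C5ar1, a receptor for C5a. Cells were taken 4 h after an injection with 100 µg of CpG, a DNA that Toll-like receptor 9 (Tlr9) senses, or with vehicle, and the vehicle-treated cells are called unstimulated. Each genotype had 2 unstimulated and 3 CpG arrays, numbered within their group (WT CpG 1 to 3, for example). The whole animals carried the deletions and received the injection, so every cell type in the spleen shared both. The labels do not say whether each sample came from a separate mouse or a pool, nor the strain, sex or age, and p-values therefore measure only the spread between these samples. CD11c beads also retain CD11c+ cells that are not DCs, and with bulk RNA fewer cells of a type and less RNA per cell cannot be told apart.

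CXC chemokines are small secreted proteins, named for the spacing of their first cysteines, that attract leukocytes bearing CXC receptors. Cxcl1, Cxcl2 and Cxcl3 belong to the ELR class, which acts on Cxcr2 and draws neutrophils, and their transcription is known to be driven by NF-kB. Cxcl9, Cxcl10 and Cxcl11 are induced by interferons and act on Cxcr3 of activated T and NK cells, Cxcl12 (receptor Cxcr4) and Cxcl13 (receptor Cxcr5) are homeostatic chemokines of lymphoid stroma, and Cxcl16 is a membrane-bound ligand of Cxcr6 that proteases shed.

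In the RefSeq genes of assembly GRCm38.p6, the ELR genes lie close together on chromosome 5, Cxcl3 at chr5:90786101-90788093, Cxcl1 at chr5:90891245-90893121 and Cxcl2 at chr5:90903899-90905938. Farther along the same chromosome stand Cxcl9 at chr5:92321331-92328079, Cxcl10 at chr5:92346638-92348889, Cxcl11 at chr5:92359544-92363296 and Cxcl13 at chr5:95956939-95961068. Cxcl12 is at chr6:117168535-117181368 and Cxcl16 at chr11:70454389-70459984. The RefSeq promoter table held a window for 7 of the 9 genes, not for Cxcl11 or Cxcl16. The 250 bases before each start were searched on both strands for the 10-base NF-kB consensus and for GAAA followed by any 2 bases and GAAA, a form of the interferon-stimulated response element. The ELR promoters and that of Cxcl10 are shown because they held the matches among the windows of the CXC chemokines. They are given 5′ to 3′ on the gene's strand and end at the base before the start, with the matched bases in capitals, from chr5:90891135-90891244 for Cxcl1, chr5:90903789-90903898 for Cxcl2, chr5:90785991-90786100 for Cxcl3 (all plus strand) and chr5:92348890-92349139 for Cxcl10 (minus strand).
Cxcl1: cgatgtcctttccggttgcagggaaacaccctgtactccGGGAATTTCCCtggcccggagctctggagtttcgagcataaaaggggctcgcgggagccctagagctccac
Cxcl2: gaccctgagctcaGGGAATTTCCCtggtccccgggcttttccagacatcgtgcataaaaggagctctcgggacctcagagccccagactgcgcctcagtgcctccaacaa
Cxcl3: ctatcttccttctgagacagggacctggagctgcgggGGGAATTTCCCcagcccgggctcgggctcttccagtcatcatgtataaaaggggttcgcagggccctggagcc
Cxcl10: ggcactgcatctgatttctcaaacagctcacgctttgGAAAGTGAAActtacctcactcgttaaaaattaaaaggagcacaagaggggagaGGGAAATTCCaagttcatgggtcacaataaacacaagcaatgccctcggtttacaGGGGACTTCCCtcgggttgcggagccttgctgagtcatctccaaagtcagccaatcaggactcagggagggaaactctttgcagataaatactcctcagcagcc
The 3 ELR promoters shared the same NF-kB match, GGGAATTTCC, which began 71 bases before the start of Cxcl1, 97 before that of Cxcl2 and 73 before that of Cxcl3. The reverse strand matched the consensus again 1 base further on, which extends the capitals to 11 bases. GGGAATTTCC occurred in 28 of the 32851 promoter windows in the table (0.0852%). These letters were picked because the 3 ELR windows share them, and those 3 are among the 28. The small share is therefore no test of the ELR promoters. Any match to the NF-kB consensus occurred in 7.25% of windows. The promoter of Cxcl10 held GAAAGTGAAA from 213 to 204 bases before the start, a pattern found in 2.98% of windows. It also held the NF-kB matches GGGAAATTCC, which began 159 bases before the start, and GGGGACTTCC, which began 104 bases before it and overlapped GGGACTTCCC. These are matches of letters, and no binding was measured. The windows of Cxcl9, Cxcl12 and Cxcl13 held neither pattern, which says only that these letters are not there.

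The values are log2 intensities, and each gene is compared only with itself, since probe sets differ in brightness. Array medians lay between 5.50 and 5.56, and replicates of a group correlated at 0.964 to 0.989 over the 13371 genes tested. DC markers were among the bright probe sets, the mean of the 7 measured being 10.77 to 11.41 and Itgax, which encodes CD11c, lying at 10.72 to 11.89. They were not steady over the groups. Their median difference after CpG was -0.44 in WT and -0.24 in DKO, where that over all genes tested was -0.04 in both. The arrays also differed in ways the groups do not explain. The mean of 13 splenic macrophage markers was 8.32 in DKO unstimulated 2 and 8.20 in DKO CpG 3, against 9.73 to 10.11 on the other 8 arrays. The mean of 3 Y-linked genes was 7.93 in DKO unstimulated 1, 7.75 in DKO CpG 1 and 7.33 in DKO CpG 2, against 3.21 to 3.68 elsewhere, so all arrays with Y-linked signal were DKO. WT CpG 3, DKO unstimulated 2 and DKO CpG 3 carry the sample titles numbered 20 and over, a later title series. With titles under 20, every DKO array thus had Y-linked signal and no WT array had. No array's label was checked through C3ar1 or C5ar1, because the position of their probes relative to the deletions is not given in the sources used here, though both genes were lower on all 5 DKO arrays than on all 5 WT arrays.

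**Figure D1:**
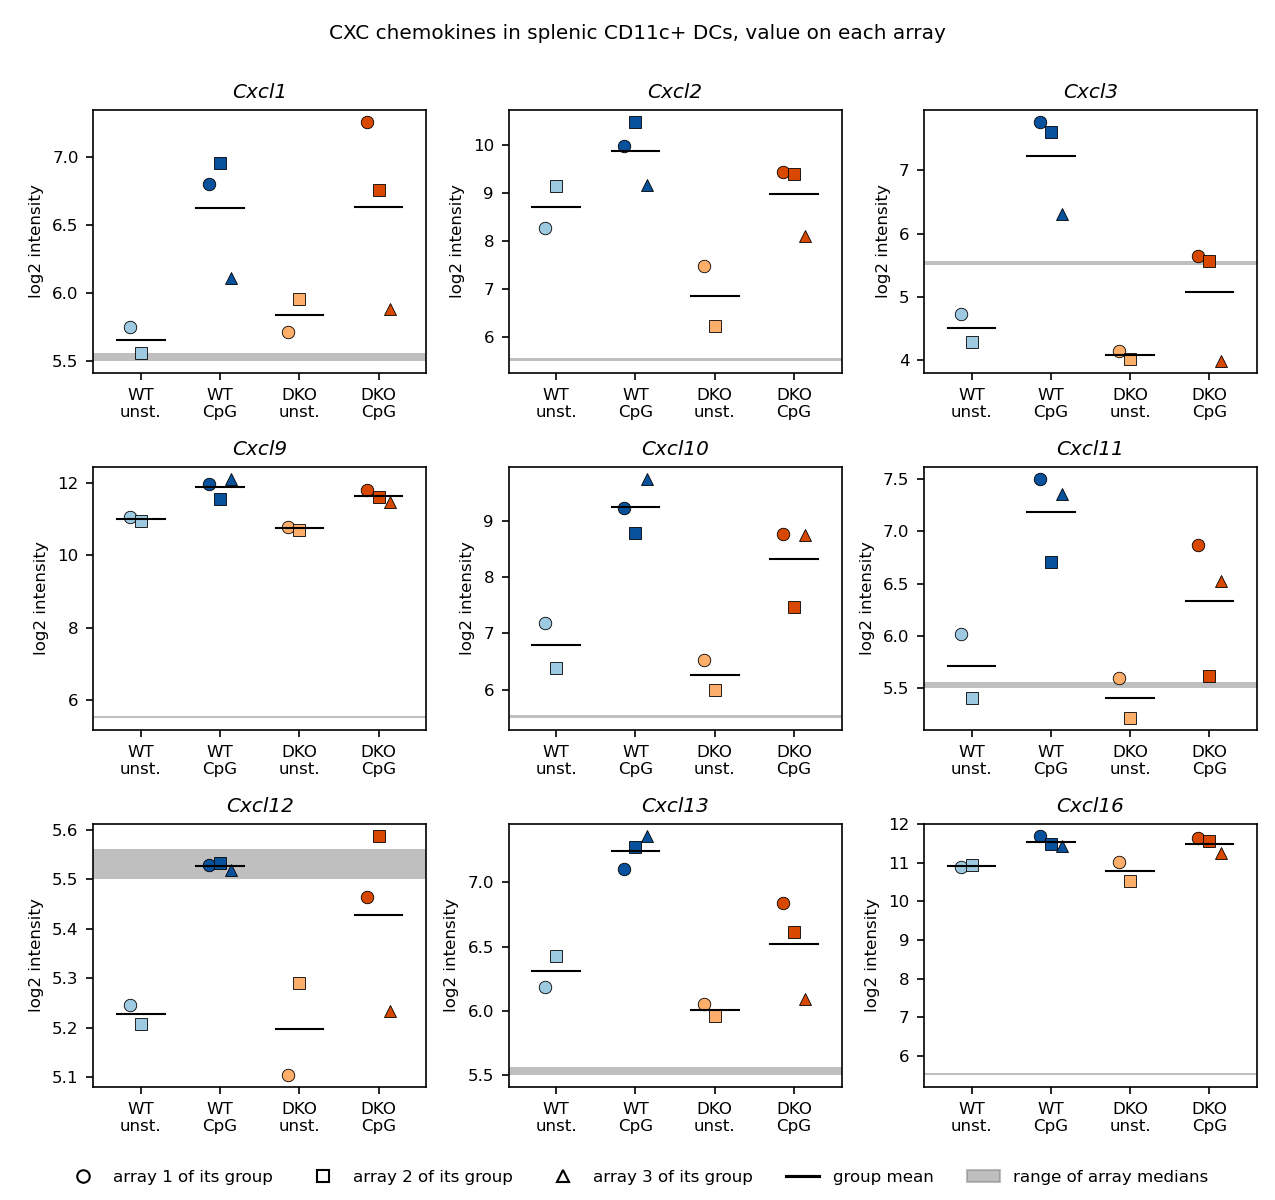
Log2 intensity of the 9 CXC chemokines on each of the 10 arrays, 1 panel per gene with its own axis, points for arrays and lines for group means. In WT, every CpG array lies above both unstimulated arrays for all 9 genes, and Cxcl3 on the 3 DKO CpG arrays (3.99 to 5.65) stays below the 3 WT CpG arrays (6.31 to 7.76).

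After CpG, the 9 chosen CXC chemokines had higher means than without stimulation in WT DCs. Cxcl10 rose 5.50-fold, Cxcl11 2.78-fold, Cxcl13 1.91-fold, Cxcl9 1.84-fold and Cxcl16 1.53-fold, and Cxcl3 rose by a fitted 6.58-fold from unstimulated values below the array median. In DKO DCs the genes that passed were Cxcl2 at 4.33-fold, Cxcl10 at 4.16-fold, Cxcl9 at 1.85-fold and Cxcl16 at 1.63-fold. A gene is called here at an adjusted p under 0.05 in limma's moderated test, with Benjamini-Hochberg adjustment over all 13371 genes. By that rule 6 of 9 members were called higher in WT, against 8.24% of all genes, and 4 of 9 in DKO, against 4.54% of all genes. No member was called lower, where 13.3% of all genes were in WT and 5.76% in DKO. The median difference over the 9 genes was 0.97 in WT and 0.88 in DKO, where the median over all genes tested was -0.04 in both. The 9 do not stand for all CXC ligands. Over the 4 tested of 6 other CXC ligands the median was 0.23 in WT and 0.17 in DKO. In WT no unstimulated array reached a CpG array for any of the 9 genes, a separation that 21.2% of all genes showed. In DKO 6 of the 9 separated in that way, against 15.2% of all genes, and Cxcl1, Cxcl3 and Cxcl12 overlapped. Cxcl3 and Cxcl12 passed the filter on low values only through CpG arrays, and without the filter the counts called were again 6 and 4. At an unadjusted p under 0.05, 9 members differed in WT, against 32.7% of all genes, and 7 in DKO, against 25% of all genes. Left out 1 at a time, the arrays moved the count called in WT between 4 and 7 and that in DKO between 0 and 7. The count in DKO was 0 without DKO unstimulated 2, 2 without DKO CpG 1 and 7 without DKO CpG 3.

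Cxcl3, an ELR ligand of Cxcr2, was called after CpG in WT. It was at 4.73 and 4.29 on the WT unstimulated arrays and at 7.76, 7.60 and 6.31 after CpG. On the DKO arrays it was at 4.15 and 4.02 unstimulated and at 5.65, 5.57 and 3.99 after CpG. The DKO array at 3.99 was lower than both unstimulated DKO arrays, and Cxcl3 exceeded the array median on only 5 of the 10 arrays, all of them CpG arrays. Its unstimulated values may be near background, and the sizes of its CpG differences are therefore uncertain. The CpG difference was 2.72 ± 0.51 (SE) in WT (adjusted p = 0.00408) and 0.99 ± 0.51 in DKO (adjusted p = 0.262). Without DKO CpG 3 the difference in DKO was 1.53 (adjusted p = 0.0249).

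Cxcl2, a second ELR ligand that macrophages and neutrophils release early in inflammation, was at 8.26 and 9.15 in WT without stimulation and at 9.98, 10.47 and 9.16 after CpG. In DKO it was at 7.48 and 6.24 without stimulation and at 9.43, 9.39 and 8.10 after CpG. The highest WT unstimulated value lay just under the lowest WT CpG value, while the DKO groups were well apart. The difference was 2.11 ± 0.51 in DKO (adjusted p = 0.0273) and 1.17 ± 0.51 in WT (adjusted p = 0.142). The call in DKO was lost without DKO unstimulated 2 (adjusted p = 0.209), without DKO CpG 1 (0.0858), without DKO CpG 2 (0.0763) with limma's trend and robust options (0.0746) and within the arrays without Y-linked signal (0.121). In a fit blocked on the title series, the WT difference passed at 1.57 (adjusted p = 0.000974), and it also passed within the arrays of titles under 20, within those without Y-linked signal, with the macrophage covariate and without the 2 arrays of low macrophage markers.

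Cxcl1, the other ELR ligand, was at 5.75 and 5.56 in WT without stimulation and at 6.80, 6.96 and 6.11 after CpG. The DKO arrays gave 5.72 and 5.96 without stimulation and 7.26, 6.76 and 5.88 after CpG. The highest Cxcl1 level of all 10 arrays was thus on a DKO array. The differences were 0.97 ± 0.35 in WT (adjusted p = 0.0761) and 0.79 ± 0.35 in DKO (adjusted p = 0.188), and neither passed. In a fit blocked on title series the WT value was 1.17 (adjusted p = 0.00900), and without DKO CpG 3 the DKO value was 1.17 (adjusted p = 0.0160). Over all alternatives and arrays left out, the WT value passed in 8 of 21, with adjusted p from 0.00127 to 0.291.

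The ELR genes shared the lowest array within each CpG group. Array 3, which has a title of the later series in both genotypes, was the lowest of its group for Cxcl1, Cxcl2 and Cxcl3 in WT and in DKO. This was not particular to the ELR genes. Array 3 was also the lowest in both genotypes for Cxcl16 (11.44 in WT, 11.25 in DKO) and Cxcl12 (5.52 and 5.23). For Cxcl10 the lowest CpG array was array 2 in both genotypes. The levels of neutrophil markers are given here because neutrophils also make ELR chemokines. The mean of the 12 neutrophil markers was 7.36 and 7.96 in WT unstimulated, 8.48, 8.96 and 7.26 in WT CpG, 6.43 and 5.96 in DKO unstimulated and 7.29, 7.05 and 5.83 in DKO CpG. Across arrays none of the ELR genes always went with this mean. Cxcl1 was lowest of all arrays on WT unstimulated 2 (mean 7.96) and highest on DKO CpG 1 (mean 7.29). Cxcl2 was highest on WT CpG 2 (10.47, mean 8.96) and lowest on DKO unstimulated 2 (6.24, mean 5.96). Yet Cxcl2 was lower on WT unstimulated 1 (8.26, mean 7.36) than on DKO CpG 2 (9.39, mean 7.05). Cxcl3 was highest on WT CpG 1 (7.76, mean 8.48) and lowest on DKO CpG 3 (3.99, mean 5.83). Yet Cxcl3 was lower on WT unstimulated 2 (4.29, mean 7.96) than on DKO CpG 2 (5.57, mean 7.05). Beyond a covariate, the part of neutrophils in these levels was not tested. S100a8, an abundant neutrophil transcript, was at 9.03 to 10.90 on the WT arrays, at 6.60 and 4.40 in DKO unstimulated and at 9.10, 8.27 and 4.82 in DKO CpG. The number of the 12 above the array median was 9 to 12 on the WT arrays and 4 to 10 on the DKO arrays. Ly6g, named here after its values were seen, was above the array median only in WT CpG 2, at 6.36. None of the 11 neutrophil markers tested was called in any of the comparisons between 2 groups. Between genotypes only 0.00748% of all genes were called without stimulation and 0.12% after CpG. After CpG 8.24% were called higher and 13.3% lower in WT, and 4.54% and 5.76% in DKO. The median DKO minus WT difference of the 11 was -1.76 in both states, where that over all genes was 0.01.

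**Figure D2:**
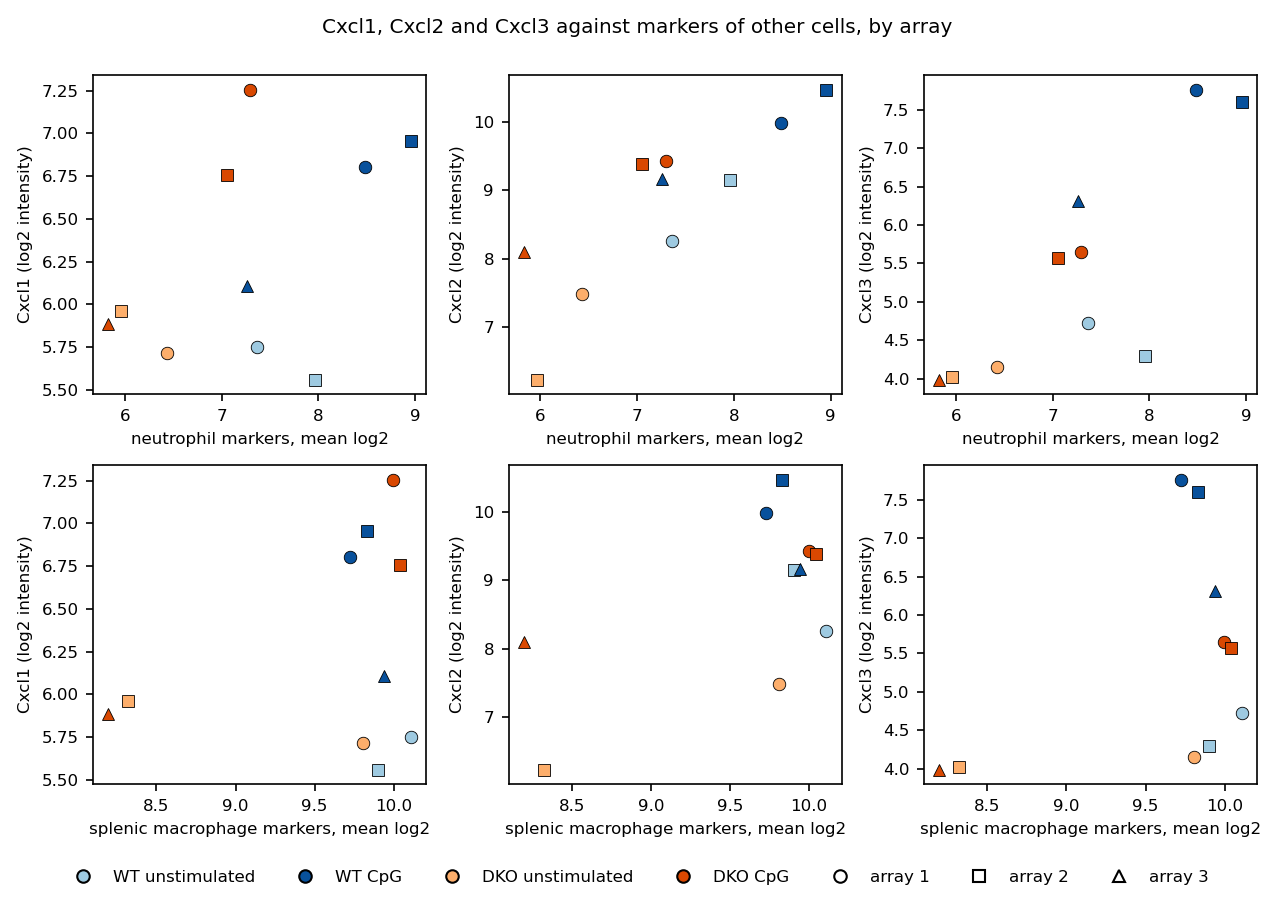
Log2 intensity of Cxcl1, Cxcl2 and Cxcl3 (vertical axes) against the mean log2 level of 12 neutrophil markers (upper row) and 13 splenic macrophage markers (lower row), 1 point per array, coloured by group. The 2 DKO arrays with macrophage markers at 8.32 and 8.20 also have the lowest neutrophil means (5.96 and 5.83) and the 2 lowest Cxcl3 values (4.02 and 3.99).

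Cxcl10, a Cxcr3 ligand and a classical interferon-induced gene, was called in both genotypes. It was at 7.18 and 6.40 in WT without stimulation and at 9.23, 8.78 and 9.74 after CpG. The DKO arrays stood at 6.52 and 6.002 without stimulation and at 8.76, 7.46 and 8.74 after CpG. Every CpG array was above every unstimulated array, whichever genotype it came from. The differences were 2.46 ± 0.41 in WT (adjusted p = 0.00219) and 2.06 ± 0.41 in DKO (adjusted p = 0.0124). The DKO call was lost without DKO unstimulated 2 (1.80, adjusted p = 0.102) with only the arrays of titles under 20 (1.59, adjusted p = 0.0696) and without the 2 arrays of low macrophage markers (1.59, adjusted p = 0.0957).

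Cxcl11, a further Cxcr3 ligand, was called in WT. The WT arrays gave 6.02 and 5.41 without stimulation and 7.50, 6.71 and 7.36 after CpG, and the DKO arrays gave 5.60 and 5.22 and then 6.87, 5.62 and 6.53. DKO CpG 2 was the lowest DKO CpG array for Cxcl10 and for Cxcl11, and for Cxcl11 it (5.616) barely exceeded an unstimulated DKO array (5.599). The differences were 1.47 ± 0.35 in WT (adjusted p = 0.0139) and 0.93 ± 0.35 in DKO (adjusted p = 0.128). Without DKO CpG 2 the DKO value was 1.29 (adjusted p = 0.0283), and the WT call was lost without WT unstimulated 2 (adjusted p = 0.138) and without WT CpG 1 (0.0516).

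Cxcl9, the Cxcr3 ligand most tied to interferon-gamma, was called in both genotypes. Its WT values were 11.06 and 10.96 without stimulation and 11.97, 11.57 and 12.11 after CpG. Its DKO values were 10.79 and 10.70 without stimulation and 11.81, 11.61 and 11.47 after CpG. The spread within each group was narrow, with SDs of 0.06 to 0.28. The difference was 0.88 ± 0.17 in each genotype, at an adjusted p of 0.00418 in WT and 0.00896 in DKO, and the DKO value missed the threshold without DKO unstimulated 2 (adjusted p = 0.0692) and within the arrays without Y-linked signal (0.162). Markers were also read for cDC1, a DC subset able to cross-present. Of 9 tested, 2 were called higher and 5 lower after CpG in WT, against 8.24% and 13.3% of all genes, and 1 higher and 4 lower in DKO, against 4.54% and 5.76%. Their part in the Cxcl9 values was not tested. Xcr1, a chemokine receptor of cDC1, fell by 2.54 in WT (adjusted p = 4.445e-05).

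Cxcl16, the Cxcr6 ligand, also rose in both genotypes. In WT it went from 10.90 and 10.94 without stimulation to 11.69, 11.47 and 11.44 after CpG. In DKO it went from 11.03 and 10.54 to 11.65, 11.56 and 11.25. The groups did not overlap in either genotype, and the differences were 0.61 ± 0.17 in WT (adjusted p = 0.0275) and 0.71 ± 0.17 in DKO (adjusted p = 0.0269). The WT call was lost on leaving out WT CpG 1, WT CpG 2 or either WT unstimulated array, and the DKO call on leaving out DKO CpG 1, DKO CpG 2 or DKO unstimulated 2, on keeping only titles under 20 or only arrays without Y-linked signal, and without the 2 arrays of low macrophage markers.

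Cxcl13, which draws B cells into follicles through Cxcr5, was at 6.19 and 6.43 in WT without stimulation and at 7.10, 7.27 and 7.36 after CpG. In DKO it was at 6.06 and 5.96 and then at 6.84, 6.62 and 6.09. The WT difference was 0.94 ± 0.20 (adjusted p = 0.00687), and without WT unstimulated 1 it did not pass (adjusted p = 0.0758). The DKO difference was 0.51 ± 0.20 (adjusted p = 0.131), and without DKO CpG 3 it was 0.72 (adjusted p = 0.0108).

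Cxcl12, the Cxcr4 ligand of stroma and endothelium, varied least of the 9, with an SD of 0.16 over the 10 arrays. It was above the array median on only 2 of them. Its WT values were 5.25 and 5.21 without stimulation and 5.53, 5.53 and 5.52 after CpG, and its DKO values were 5.10 and 5.29 and then 5.46, 5.59 and 5.23. The WT groups were separate and the DKO groups overlapped, with differences of 0.30 ± 0.13 in WT (adjusted p = 0.128) and 0.23 ± 0.13 in DKO (adjusted p = 0.297). The 12 stromal and endothelial markers averaged 5.98 to 6.40 per array.

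Between genotypes, no CXC chemokine was called in DKO against WT cells, with or without CpG, in the model of group means. Most values were lower in DKO. The sizes were largest for Cxcl2 without stimulation (-1.84) and Cxcl3 after CpG (-2.15). Without stimulation 0 of 9 were called by limma, against 0.00748% of all genes, and 1 had an unadjusted p under 0.05, against 4.63% of all genes. After CpG 0 of 9 were called, against 0.12% of all genes, and 4 had an unadjusted p under 0.05, a share reached by 14.3% of all genes. The trend and robust options of limma also called 0 of 9 in both comparisons. The median over the 9 was -0.30 without stimulation and -0.73 after CpG, and over all genes it was 0.01 in both.

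Cxcl2 was the member with an unadjusted p under 0.05 without stimulation. Both DKO arrays (7.48 and 6.24) were below both WT arrays (8.26 and 9.15), and the difference was -1.84 ± 0.56 (95% confidence interval -3.09 to -0.60, adjusted p = 0.904). It passed within the arrays without Y-linked signal, which leave 1 DKO unstimulated array (-2.47, adjusted p = 0.0399). Cxcl3, Cxcl9 and Cxcl13 also had both DKO arrays below both WT arrays, at differences of -0.43, -0.26 and -0.30, a separation shown by 15.9% of all genes. The other 5 overlapped, with differences of 0.18 for Cxcl1, -0.53 for Cxcl10, -0.31 for Cxcl11, -0.03 for Cxcl12 and -0.14 for Cxcl16.

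After CpG the lowest WT array for Cxcl3 (6.31) lay above the highest DKO array (5.65). The difference was -2.15 ± 0.46 (95% confidence interval -3.16 to -1.15), a level 4.45-fold lower in DKO, at an adjusted p of 0.0776. Cxcl3 passed the threshold when the title series was a block (-2.15, adjusted p = 0.00457), within the arrays of titles under 20 (-2.07, adjusted p = 0.000633), within the arrays without Y-linked signal (-3.24, adjusted p = 0.00628), with the macrophage marker mean as a covariate (-1.91, adjusted p = 0.0476) and without DKO CpG 1 (-2.45, adjusted p = 0.0447). The arrays without Y-linked signal leave 1 DKO CpG array, DKO CpG 3, which has low macrophage markers, the lowest neutrophil mean and a later title. Among titles under 20, every DKO array and no WT array had Y-linked signal. Genotype and what goes with Y-linked signal cannot be told apart there. With the neutrophil marker mean as a covariate the difference was -0.84 (adjusted p = 0.440), and without the 2 arrays of low macrophage markers -1.61 (adjusted p = 0.109). The neutrophil marker mean was 5.83 to 7.29 on the DKO CpG arrays and 7.26 to 8.96 on the WT CpG arrays, and its part in the difference was not tested beyond this covariate. S100a8 differed by -2.79 ± 0.98 in the same comparison (adjusted p = 0.230).

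Cxcl13 after CpG was at 7.10 to 7.36 in WT and 6.09 to 6.84 in DKO, with no overlap. The difference was -0.73 ± 0.18 (95% confidence interval -1.12 to -0.34, adjusted p = 0.0968). Under a block for the title series it passed (-0.73, adjusted p = 0.04996), without DKO CpG 1 (-0.89, adjusted p = 0.0369) and within the arrays without Y-linked signal (-1.15, adjusted p = 0.00698), where DKO CpG 3 at 6.09 is again the only DKO CpG array. Over all 21 alternatives and arrays left out it passed in these 3, with adjusted p from 0.00698 to 0.541.

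The interferon-induced ligands were at -0.93 ± 0.37 for Cxcl10 (adjusted p = 0.285) and -0.85 ± 0.32 for Cxcl11 (adjusted p = 0.258). For Cxcl10 the lowest WT array (8.78) was just above the highest DKO array (8.76). Cxcl3, Cxcl10 and Cxcl13 were thus the 3 members without overlap, lower in DKO, a separation found in 7.58% of all genes. Of the rest, Cxcl2 stood at -0.90 ± 0.46 (adjusted p = 0.411) and Cxcl9 at -0.26 ± 0.15 (adjusted p = 0.472). Cxcl1, Cxcl12 and Cxcl16 were at 0.01, -0.10 and -0.045. For Cxcl1 the standard error of 0.31 means that a difference in either direction could not be resolved. Averaged over stimulation, a contrast added after the values were seen, 0 of 9 were called in DKO against WT, against 0.0972% of all genes, and 6 had an unadjusted p under 0.05, against 11.6% of all genes.

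**Figure D3:**
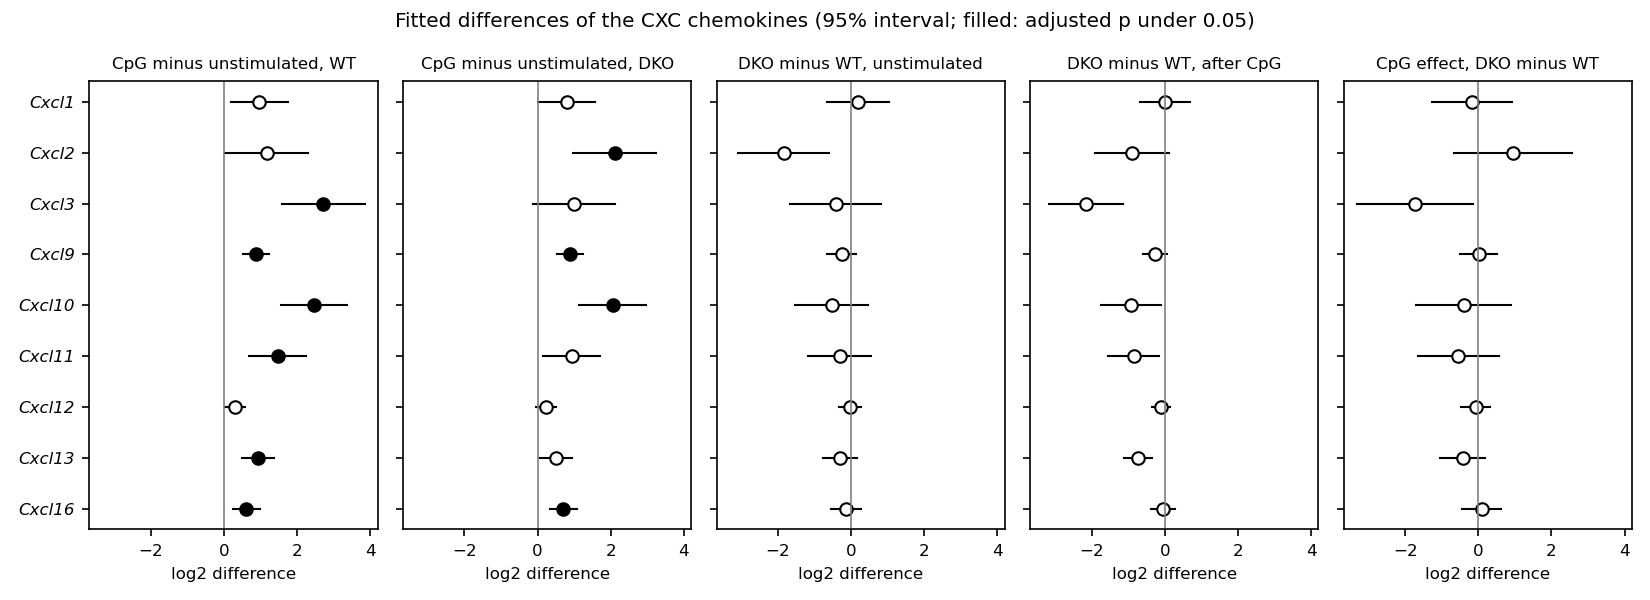
Log2 difference of each CXC chemokine with its 95% confidence interval from limma, with filled points for an adjusted p under 0.05. The panels show the CpG effect in each genotype, DKO against WT in each state, and the CpG effect in DKO less that in WT. Filled points are found in the CpG comparisons, 6 in WT and 4 in DKO. None is found between genotypes or for the difference of the CpG effects.

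Whether the CpG response itself differed between genotypes was tested as the CpG effect in DKO less that in WT, the interaction. By limma 0 of 9 were called, against 0.00748% of all genes, and 0 of 9 with the trend and robust options. At an unadjusted p under 0.05 there was 1, against 5.65% of all genes. This was Cxcl3, at -1.73 ± 0.72 (95% confidence interval -3.32 to -0.13, adjusted p = 0.850). Cxcl2 had the opposite sign at 0.95 ± 0.73 (95% confidence interval -0.66 to 2.55, adjusted p = 0.938), beside unstimulated means of 6.86 in DKO and 8.70 in WT. For Cxcl9 the interval ran from -0.51 to 0.52 around 0.0069. The call of Cxcl3 in WT and not in DKO, and that of Cxcl2 in DKO and not in WT, were thus not differences between genotypes that passed the test.

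Among the receptors, 7 of 9 listed genes were tested, and in WT 1 was called higher and 1 lower after CpG, where 8.24% and 13.3% of all genes were. Cxcr5, the receptor for Cxcl13, rose by 1.41 ± 0.18 in WT (adjusted p = 0.000531). It was at 6.93 and 6.78 in WT without stimulation and at 8.08, 8.62 and 8.11 after CpG, and at 6.63 and 7.01 and then 7.41, 7.32 and 7.57 in DKO. The DKO difference was 0.62 ± 0.18 (adjusted p = 0.0572), and after CpG the DKO arrays were below the WT arrays by -0.83 ± 0.16 (adjusted p = 0.0679). After CpG the means of Cxcl13 and Cxcr5 were both lower in DKO than in WT. This was not particular to the pair, since 8 of the 9 CXC chemokines were lower in DKO after CpG. Cxcr3, the receptor for Cxcl9, Cxcl10 and Cxcl11, was called lower in both genotypes, at -0.65 ± 0.15 in WT (adjusted p = 0.0101) and -0.52 ± 0.15 in DKO (adjusted p = 0.0470). Cxcr2, the receptor for the ELR ligands and itself one of the neutrophil markers, differed in DKO against WT by -2.70 ± 0.81 without stimulation (adjusted p = 0.904) and -2.11 ± 0.66 after CpG (adjusted p = 0.187). Cxcr4 was at -0.36 in WT and -0.16 in DKO after CpG, and Cxcr6 missed the filter on low values. Of 6 other CXC ligands, 4 were tested and none was called in any comparison between 2 groups. Over all genes the share called ran from 0.00748% between unstimulated genotypes to 8.24% higher and 13.3% lower after CpG in WT. With 4 genes the count says little beside such shares. The platelet chemokine Pf4 was at 0.41 after CpG in WT (adjusted p = 0.0852).

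The counts of regulators upstream of the CXC chemokines are to be read against all genes, of which 8.24% were called higher and 13.3% lower after CpG in WT, and 4.54% and 5.76% in DKO. Of 18 genes tested for TLR9 and NF-kB signalling, 10 were called higher in WT and 9 in DKO, and none lower. Nfkbiz, a nuclear co-activator of NF-kB targets, rose by 1.15 in WT and 1.25 in DKO, Tnfaip3, a brake on the pathway, by 0.78 and 0.98, and the adaptor Myd88 by 0.91 and 0.78. Tlr9 itself was at 0.43 in WT (adjusted p = 0.138) and 0.29 in DKO (adjusted p = 0.375). Of 17 interferon signalling genes, 8 were called higher and 2 lower in WT, and 2 higher and 2 lower in DKO. Usp18, a feedback inhibitor of the type I receptor, rose by 2.28 in WT and 1.65 in DKO, and the transcription factor Irf1 by 0.90 and 0.70. Irf7 and Stat2 rose in WT by 1.88 and 1.60, and were at 1.12 (adjusted p = 0.0928) and 0.996 (adjusted p = 0.0630) in DKO. Ifnb1 was called in WT (adjusted p = 0.0405) and not in DKO (adjusted p = 0.126), but it was above the array median only on WT CpG 1, WT CpG 2 and DKO CpG 1 (5.87, 5.74 and 5.60), so the size of its difference is not given. Ifng was at 1.29 in WT (adjusted p = 0.114) and 0.66 in DKO (adjusted p = 0.503). Ifngr1, which encodes the ligand-binding chain of the interferon-gamma receptor, fell by 1.64 in WT and fell by 0.85 in DKO. It was the gene of these lists that was called between genotypes after CpG, at 9.73, 9.59 and 9.67 in WT and 10.39, 10.82 and 10.70 in DKO, a difference of 0.97 ± 0.13 (adjusted p = 0.0225). Of 11 genes that process CXC chemokines or control decay of their mRNAs, 1 was called higher and 2 lower in WT, and none in DKO, shares near those of all genes. The RNase gene Zc3h12a rose by 0.56, while Zfp36l2, an mRNA decay factor, fell by 1.26 and Adam10, a protease that sheds Cxcl16, fell by 0.61.

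**Figure D4:**
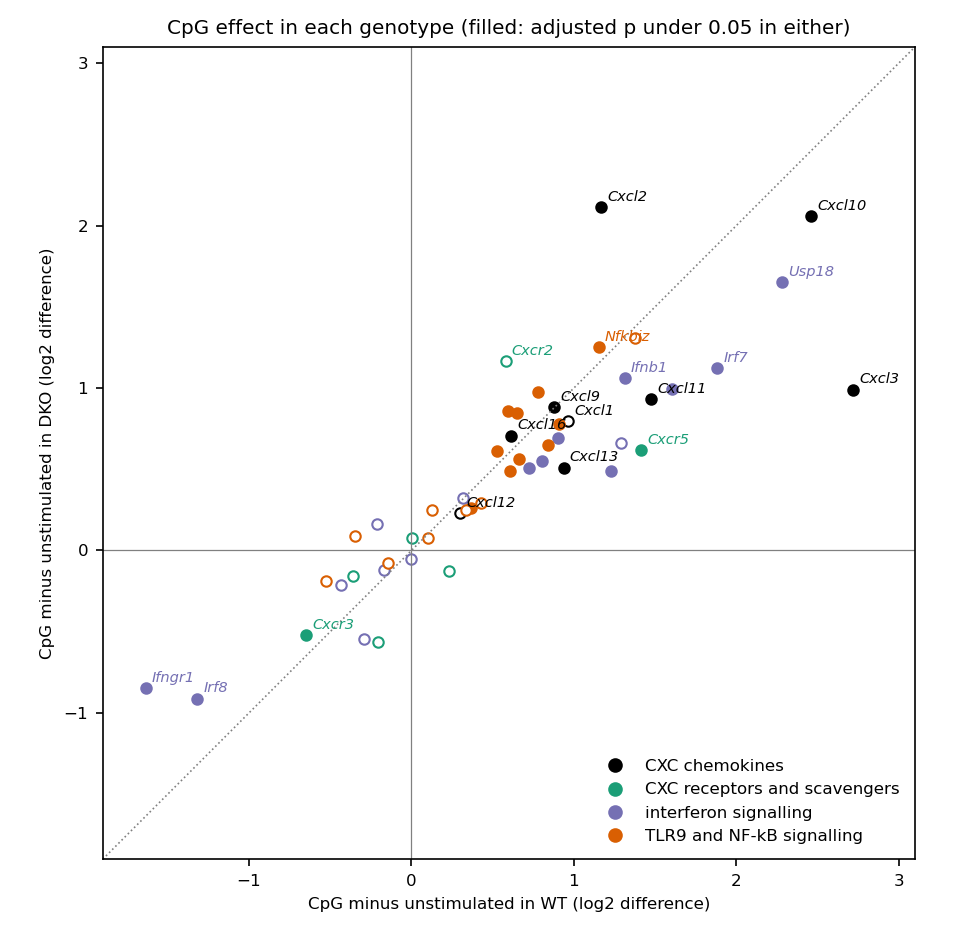
CpG effect in DKO against CpG effect in WT, both as log2 differences, for the CXC chemokines, their receptors, interferon signalling genes and TLR9 and NF-kB signalling genes, with filled points for an adjusted p under 0.05 in either genotype. Cxcl3 lies far below the dotted line of equal effects (2.72 in WT, 0.99 in DKO) and Cxcl2 above it (1.17 and 2.11), while Cxcl9 lies on it.

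As a description of pattern, each member was compared with the other genes by the root mean square (RMS) difference of log2 values over the 10 arrays, each gene centred on its own mean. The genes nearest to Cxcl3 were Lcn2 (0.36), Gpr84 (0.43) and Stfa2l1 (0.44), and those nearest to Cxcl2 were P2ry2 (0.43), Slc7a11 (0.46) and Gda (0.47). Lcn2 encodes a neutrophil granule protein. Nearest to Cxcl10 were Gbp7 (0.22), Ifit2 (0.23) and Gbp5 (0.24), and nearest to Cxcl11 were Pml (0.18), Nt5c3 (0.21) and Pnpt1 (0.23). Gbp7, Ifit2, Gbp5 and Pml are known interferon-stimulated genes. Cxcl9 was nearest to Clec4a1, Acadl and Elp5 (0.11 to 0.13), Cxcl16 to Map4k4, Eif1a and Tmem200b (0.099 to 0.11) and Cxcl13 to Usp25, Net1 and Ppa1 (0.18 to 0.19). Cxcl1 was nearest to Mdm2, Rcsd1 and Unc93a2 (0.22 to 0.25), and Cxcl12 to Kcna3, Pphln1 and Krt32 (0.066 to 0.069). Small distances come partly from small spread, the SD over arrays being 1.36 for Cxcl3 and 0.16 for Cxcl12.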

How the data were processed

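Arrays were measured for 10 samples. Per the submitters' processing notes, the authors used RMA and Affymetrix Expression Console, and the deposited table holds a log2 intensity for every probe set. RMA corrects background, normalizes arrays to a common distribution and summarises probes, so a change shared by all genes would not be seen. Tool versions, the genome build and the probe annotation: not given in the sources used here. The labels name an amplification kit for a first batch without saying which samples it held, so the numbers in sample titles (under 20, or 20 and over) stood in for it.

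Of 41345 probe sets, 23521 had 1 gene symbol in the platform annotation, and 23328 of these matched a RefSeq gene (GRCm38.p6). For a gene with several, the probe set of highest mean was taken. Some genes of the lists are not reported here. A model of 4 group means was fitted to all 13371 tested genes on 10 arrays with limma 3.58.1 (lmFit, eBayes) in R 4.3.3 (6 residual degrees of freedom, 4.49 from the prior). It was tested on simulated data. Tests were two-sided. Values after ± are standard errors of a difference. The number of arrays limits the precision. Promoters and figures were made with Python 3.11.15 and matplotlib 3.10.9.

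The 9 genes and the lists (CXC receptors, other CXC ligands, processing and mRNA decay, interferon signalling, TLR9 and NF-kB signalling, and markers of DCs, cDC1, neutrophils, splenic macrophages and stroma) were chosen with earlier results of these data known. Named genes were the 9, called list genes (up to 6 per list and contrast, by smallest p), some listed genes whether called or not, defining markers, and for each member the 3 nearest by RMS difference, predicted genes and small RNAs aside. Alternatives were no filter, mean of probe sets, median centring, quantile normalization, trend and robust, marker means as covariates, title series, arrays without Y-linked signal and each array left out.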

Additional observations from a re-analysis of the deposited data

How the results depend on the processing

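No paired analysis was possible because the labels carry no replicate numbers. Under the alternatives run, all calls of the CpG effect kept their direction. Reversals were found among small or uncalled differences, and their cause was not tested. With only the 7 arrays without Y-linked signal, which leave 1 DKO array per condition, the CpG effect in DKO was -0.075 for Cxcl1, -0.057 for Cxcl12 and -0.028 for Cxcl3. There DKO minus WT was -0.22 for Cxcl1 averaged over stimulation, -0.74 for Cxcl1 after CpG and 0.063 for Cxcl12 without stimulation, and the difference of CpG effects was 0.27 for Cxcl10 and -0.11 for Cxcl9. With only the 7 arrays of titles under 20, the difference of CpG effects was 0.066 for Cxcl1, 0.12 for Cxcl12 and -0.083 for Cxcl16, and DKO minus WT for Cxcl16 was 0.065 averaged, 0.023 after CpG and 0.11 unstimulated. Among those 7, all DKO arrays and no WT array had Y-linked signal. Without DKO unstimulated 2 and DKO CpG 3, left out after their values were seen, the difference of CpG effects was 0.32 for Cxcl1, 0.12 for Cxcl12 and -0.034 for Cxcl16, and DKO minus WT for Cxcl16 was 0.089 averaged, 0.072 after CpG and 0.11 unstimulated. After quantile normalization DKO minus WT after CpG was -0.0085 for Cxcl1. With the neutrophil covariate, DKO minus WT averaged was 0.036 for Cxcl12, 0.17 for Cxcl16, 0.036 for Cxcl2 and 0.0053 for Cxcl3. After CpG it was 0.0034 for Cxcl12, 0.22 for Cxcl16 and 0.53 for Cxcl2, and unstimulated 0.069 for Cxcl12, 0.12 for Cxcl16 and 0.85 for Cxcl3. With the macrophage covariate, DKO minus WT unstimulated was 0.032 for Cxcl12, 0.073 for Cxcl16 and 0.12 for Cxcl3, that of Cxcl16 was 0.061 averaged and 0.050 after CpG, and the difference of CpG effects was -0.023 for Cxcl16 and -0.051 for Cxcl9. With the title series as a block, the difference of CpG effects was -0.063 for Cxcl16, and DKO minus WT unstimulated was 0.018 for Cxcl16 and 0.14 for Cxcl3.

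Leaving out 1 array at a time, the difference of CpG effects ranged from -0.48 to 0.20 for Cxcl1, -0.80 to 0.028 for Cxcl10, -0.16 to 0.030 for Cxcl12, -0.15 to 0.34 for Cxcl16 and -0.15 to 0.12 for Cxcl9. DKO minus WT after CpG ranged from -0.30 to 0.38 for Cxcl1 and -0.13 to 0.072 for Cxcl16, unstimulated from -0.12 to 0.063 for Cxcl12 and -0.39 to 0.11 for Cxcl16, and averaged from -0.060 to 0.28 for Cxcl1 and -0.22 to 0.030 for Cxcl16.

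The count of CXC chemokines called for CpG in DKO was 4, 1 with only the arrays without Y-linked signal and 0 to 7 with 1 array left out. After CpG the count called between genotypes was 0, 1 with the macrophage covariate, 2 without Y-linked arrays, 1 with titles under 20, 2 with the title block and 0 to 2 with 1 array left out, and unstimulated it was 0, and 1 without Y-linked arrays. Over all genes, 1377 were called for CpG in DKO, 408 without Y-linked arrays and 423 to 1909 with 1 array left out, and for CpG in WT 2885, and 1277 to 3226 with 1 left out. Between genotypes after CpG 16 genes were called, and 107 with the macrophage covariate, 7 with the neutrophil covariate, 723 without Y-linked arrays, 90 with titles under 20, 296 with the title block, 76 with trend and robust, 26 without the 2 arrays of low macrophage markers and 2 to 267 with 1 array left out. Unstimulated, 1 gene was called, and 6, 250, 23, 2 and 5 with the macrophage covariate, without Y-linked arrays, with titles under 20, with the title block and without the 2 arrays, and 1 to 2 with 1 left out. For the difference of CpG effects 1 gene was called, 0 with median centring, the neutrophil covariate, no Y-linked arrays, quantile normalization or the title block, 2 with titles under 20, and 0 to 1 with 1 left out. Where leaving out arrays left 1 in a group, that array was assumed to vary like the others.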
